A study of Mus musculus with 24 samples.

Results

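Chemokine receptors are the surface proteins by which a macrophage senses and follows chemokines, and 7 of their genes were followed here: Cx3cr1, Ccr2, Ccr3, Ccr1, Ccr7, Ccrl2 and Cxcr4. They were taken by name, with gene identifiers mapped to symbols, from a gene count table of 55357 genes, and all 7 of the 7 were among the 14985 genes with enough counts to be tested. The study cultured bone marrow cells of wild-type C57BL/6J mice, 8 to 12 weeks old, in medium with M-CSF-containing L929 supernatant, which makes bone marrow-derived macrophages. The 8 groups were control cells, cells given 100 nM dexamethasone, cells given 100 ng of lipopolysaccharide (LPS; the labels give no volume) and cells given both, each after 4 h and after 24 h. Each group had 3 libraries, and all 24 libraries shared strain, genotype and M-CSF medium. The labels do not say whether control cells received a vehicle, nor whether the 3 libraries of a group came from separate mice or cultures, so the p-values speak only to the spread of the libraries, which may be technical.

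Most chemokine receptors couple to inhibitory G proteins, and receptor binding turns the actin skeleton toward the source of the chemokine. Cx3cr1 and Ccr2 are best known from monocytes and macrophages, Ccr1 and Ccr3 bind several inflammatory CC chemokines, Ccr7 guides cells to lymph nodes, and Cxcr4 holds cells in the bone marrow. Ccrl2 is an atypical receptor that binds chemerin and is not known to signal as the others do. LPS, a bacterial product, acts through Toll-like receptor 4. Dexamethasone is a synthetic glucocorticoid that acts through the glucocorticoid receptor, a transcription factor.

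Levels are given as CPM, a gene's count relative to the library's total after TMM scaling, as mean ± SD with n = 3. Library totals ranged from 18326206 to 27908164 counts. Fold changes carry an approximate SE on the log2 scale, and the tests are quasi-likelihood F tests in edgeR. Their p-values were adjusted over all 14985 genes by the Benjamini-Hochberg method, with 0.05 as the threshold for a call. Between receptors, levels are compared only as CPM per kb of exon. RNA per receptor in a bulk library does not separate fewer expressing cells from less RNA per cell. The macrophage label was checked against 9 marker genes, whose summed level was 17000 to 52500 CPM in every library, with Csf1r, the M-CSF receptor, at 2290 to 3520 CPM by group. Of 8 lymphocyte markers none passed the count filter, and their summed level stayed at or below 3.63 CPM. Markers of other cells moved with the groups. The sum of 8 neutrophil markers was 43.7 ± 9.17 CPM in control cells at 4 h, 34.4 ± 5.11 with dexamethasone, 132 ± 22.2 with LPS and 100 ± 22.2 with both, and 1.6 to 20.1 by group at 24 h. All 7 of them that were tested were lower in control cells at 24 h than at 4 h, as were 30.4% of all tested genes. Ly6g was at 0 in 5 of the 8 groups. The sum of 7 stromal and endothelial markers was 18.8 ± 3.62 CPM in control cells at 4 h, 2.36 ± 0.51 with dexamethasone, 168 ± 25 with LPS and 120 ± 4.45 with both, and 7.08 to 31.8 by group at 24 h. Kdr made up 120 CPM of the LPS sum at 4 h, and Col1a1 and Col1a2 did not pass the count filter. The part of these cells in the receptor results was not tested.

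In control macrophages at 4 h the receptor transcripts were mostly Cx3cr1 and Cxcr4, which made up 43.8% ± 1.26 and 42.6% ± 1.1 (SD, n = 3) of the summed CPM per kb of the 7 genes. LPS for 4 h turned that make-up over: Ccrl2 then held 80.4% ± 3.7 and Cxcr4 0.798% ± 0.319. With dexamethasone beside LPS, Ccrl2 held 93.5% ± 1.44 at 4 h. Dexamethasone alone for 24 h left Cxcr4 with 93.8% ± 0.57 of the sum. At 24 h of LPS no receptor held a majority, with Cxcr4 at 30.5% ± 2.31, Ccrl2 at 27.7% ± 1.68 and Ccr1 at 20.4% ± 1.24. The sum itself was 213 ± 9.82 CPM per kb in control cells at 4 h and 248 ± 5.7 after 4 h of LPS, but 53.5 ± 2.91 after 24 h of LPS and 43.9 ± 4.65 after 24 h of LPS plus dexamethasone. It was 277 ± 17 after 24 h of dexamethasone alone, against 182 ± 17.7 in the control cells of that time. The order of the control and LPS sums at 4 h depends on the TMM factors and reverses without them. These factors were 1.166 to 1.184 in the control libraries and 0.6789 to 0.7052 in the LPS libraries of 4 h.

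**Figure D1:**
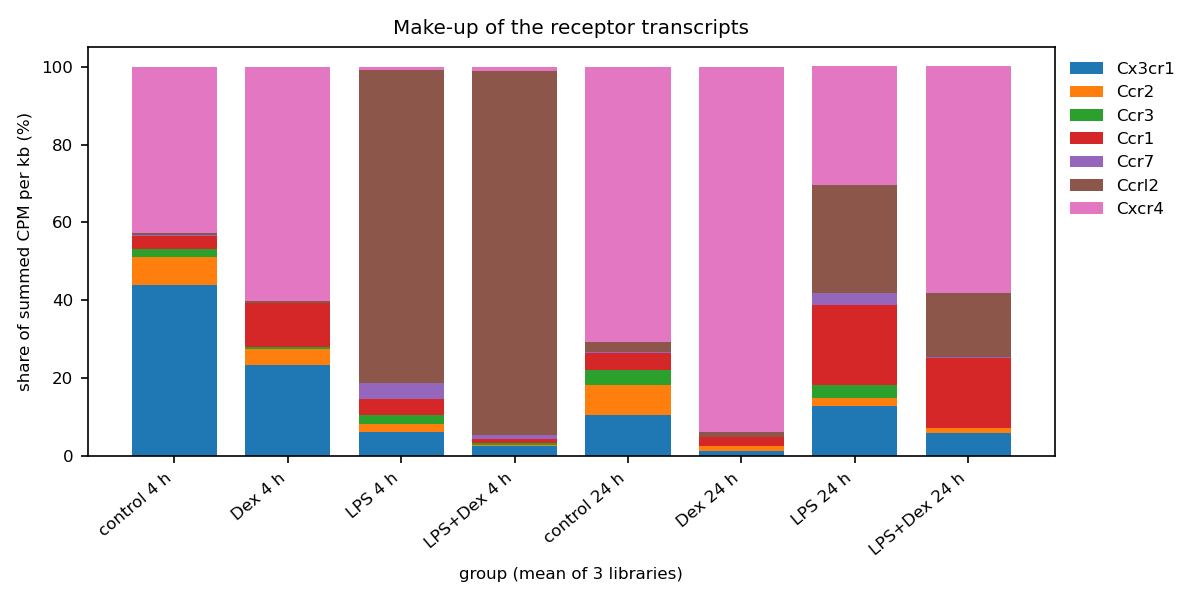
Stacked bars give the share (%) of each receptor in the summed CPM per kb of exon of the 7 genes, as the mean of 3 libraries in each of the 8 groups. Cx3cr1 and Cxcr4 fill most of the control bar at 4 h, Ccrl2 fills 80.4% and 93.5% of the bars with LPS at 4 h, and Cxcr4 fills 93.8% of the bar for dexamethasone at 24 h.

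Counted over the receptors, LPS at 4 h called all 7, with 4 higher and 3 lower than control cells, where 72.9% of all tested genes were called, 34.2% higher and 38.8% lower. LPS at 24 h called 6 of 7, with 2 higher and 4 lower, beside 60.4% of all genes, 29.7% higher and 30.6% lower. With shares of that size among all genes, being called is no mark of the receptors, and the sizes and directions carry the description. Dexamethasone alone called 6 of 7 at 4 h, 1 higher and 5 lower, where 41.4% of all genes were called, 17.6% higher and 23.7% lower. At 24 h it also called 1 higher and 5 lower, where 48.4% of all genes were called, 21.9% higher and 26.5% lower. Added to LPS, dexamethasone lowered 6 of 7 at 4 h and raised none, where 49.3% of all genes were called, 23.9% higher and 25.4% lower. At 24 h of LPS it raised 1 and lowered 5, where 43.7% of all genes were called, 21% higher and 22.6% lower. Against dexamethasone alone, the pair of agents raised 2 and lowered 4 receptors at 4 h, beside 69.6% of all genes (34% higher, 35.6% lower), and the same numbers at 24 h, beside 58.3% (29.6% higher, 28.7% lower). The splits over all genes depended on the scaling, most of all where LPS was given for 4 h. When libraries were scaled by total count alone, the share of higher genes among the called ones went from 46.8% to 19.9% for LPS at 4 h, from 49.2% to 32.9% for LPS at 24 h and from 48.5% to 71.6% for dexamethasone under LPS at 4 h. For the pair against dexamethasone alone it went from 48.9% to 24% at 4 h and from 50.7% to 32.6% at 24 h. For dexamethasone alone it went from 42.6% to 41.1% at 4 h and from 45.2% to 50.6% at 24 h. For dexamethasone under LPS at 24 h it went from 48.2% to 53.3%. Among the receptors, this scaling ended the calls of Ccr1 and Ccr3 under LPS at 4 h. It also called Ccr3 lower for the pair against dexamethasone alone at 4 h (-1.18, adjusted p = 0.0015). No other receptor call or direction changed in the comparisons between groups. The median log2 fold change of the 7 receptors under dexamethasone was -1.52 at 4 h and -2.14 at 24 h without LPS, and -2.67 and -1.07 with LPS, while the median over all tested genes lay between -0.04 and 0 in these comparisons.

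**Figure D2:**
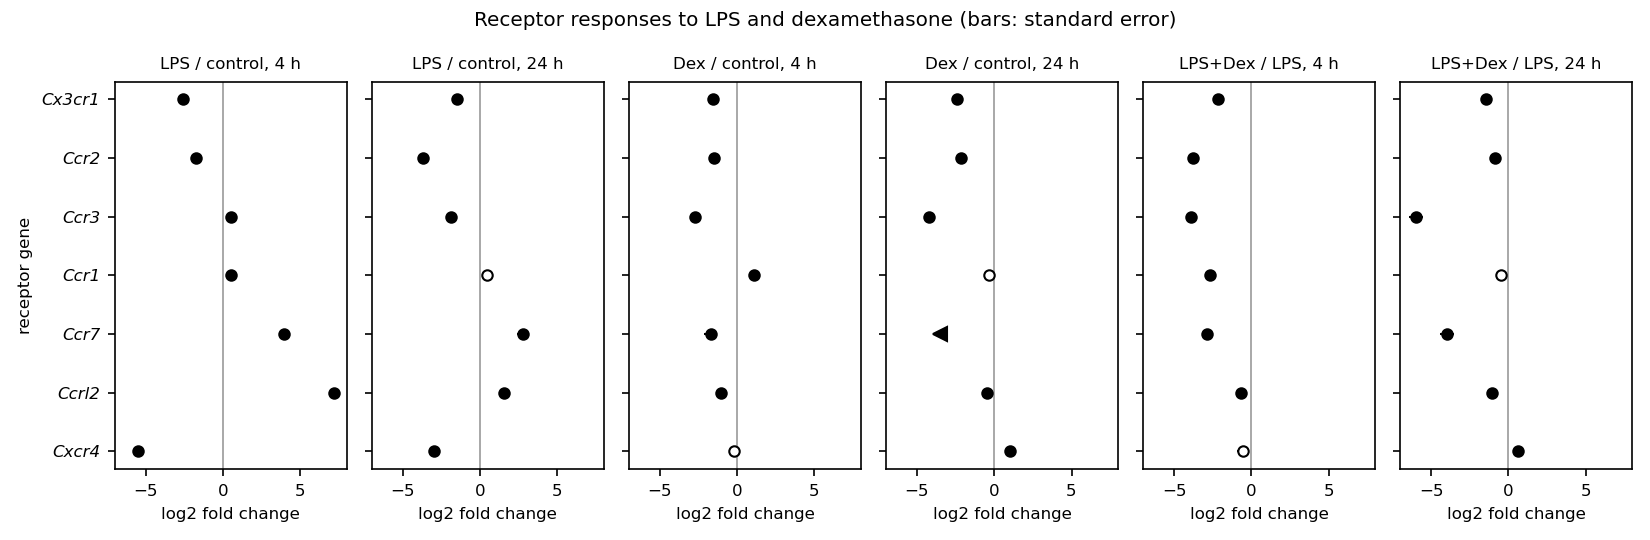
Points give log2 fold changes of the 7 receptors (rows) in 6 comparisons (panels), bars the standard error, filled points adjusted p under 0.05 and open points not. The triangle for Ccr7 marks a bound, since no count was seen in dexamethasone-treated cells at 24 h; Cx3cr1, Ccr2, Ccr3, Ccr7 and Ccrl2 lie left of 0 in all 4 dexamethasone panels, and Ccrl2 at 4 h of LPS lies farthest to the right at 7.17.

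Cx3cr1 encodes the receptor of fractalkine (Cx3cl1), a membrane-bound chemokine, and marks many resident macrophages. At 4 h its level was 431, 400 and 431 CPM in control libraries, 137, 139 and 142 with dexamethasone, 66.8, 61.5 and 80.1 with LPS, and 15.9, 17.2 and 14.2 with both. The 4 groups of 4 h did not overlap, and each agent lowered the level while the pair lowered it most. After 24 h the libraries held 80.4, 99.5 and 79.1 CPM in control cells, 20.4, 15 and 13.3 with dexamethasone, 31.1, 35.2 and 27.2 with LPS, and 10.9, 12.9 and 10.6 with both. The order was control, LPS, dexamethasone and both, again with no overlap. The step from dexamethasone to both was -0.5 ± 0.16 on the log2 scale (adjusted p = 0.013). Its call was lost without dexamethasone replicate 1 (-0.3, adjusted p = 0.098). It was also lost without LPS plus dexamethasone replicate 1 (-0.46, adjusted p = 0.051) or replicate 3 (-0.43, adjusted p = 0.064). LPS lowered Cx3cr1 by 2.6 ± 0.12 on the log2 scale at 4 h, a 6.07-fold fall (adjusted p = 7.3e-14), and the 24 h fall was 2.77-fold (adjusted p = 3e-09). Dexamethasone alone gave a 3.02-fold fall at 4 h (adjusted p = 4.2e-10) and a 5.32-fold fall at 24 h (adjusted p = 6.1e-12). Under LPS dexamethasone gave a further 4.41-fold fall at 4 h and a 2.72-fold fall at 24 h. Control cells themselves lost Cx3cr1 between the times, from 421 ± 17.8 to 86.3 ± 11.4 CPM, 4.87-fold (adjusted p = 1.1e-12), in a comparison that called 3 receptors higher and 2 lower, beside 60.9% of all genes (30.6% higher, 30.4% lower). Cx3cr1 shares 78 exon bases, 1.73% of its exon length, with the gene model Gm33858, and was the only receptor of the 7 to share any.

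Ccr2 encodes the receptor of Ccl2, Ccl7 and Ccl12 and brings inflammatory monocytes out of the bone marrow and into tissue. Its level at 4 h was 110, 107 and 96.5 CPM in control libraries, 32.6, 37.3 and 39.5 with dexamethasone, 26.6, 27.1 and 40.6 with LPS, and 1.97, 2.85 and 2.1 with both. The single agents overlapped each other, and the pair lay below both. At 24 h the values were 94.8, 102 and 91.1 CPM in control cells, 23.2, 23.1 and 19.2 with dexamethasone, 5.69, 8.8 and 7.25 with LPS, and 4.14, 2.74 and 4.78 with both. At this time no groups overlapped, and LPS alone lay below dexamethasone alone. LPS lowered Ccr2 3.35-fold at 4 h (log2 change -1.74 ± 0.14, adjusted p = 3.1e-10) and 13.3-fold at 24 h (log2 change -3.73 ± 0.17, adjusted p = 1.8e-14). Dexamethasone alone lowered it 2.87-fold at 4 h and 4.39-fold at 24 h. Under LPS the dexamethasone fall was 13.6-fold at 4 h (adjusted p = 5.4e-12) and 1.85-fold at 24 h (adjusted p = 0.0039). Between control cells of 4 h and 24 h no difference was called (log2 change -0.13 ± 0.13, adjusted p = 0.41). Of 5 monocyte markers, dexamethasone alone raised 3 at each time and lowered none, where 17.6% of all tested genes were higher at 4 h and 21.9% at 24 h. Plac8 was not called at either time (log2 changes of -0.86 and -0.9). LPS raised 4 of the 5 and lowered 0 at 4 h, and raised 3 and lowered 1 at 24 h. Under LPS dexamethasone raised 4 at each time and lowered Plac8 (-1.71 at 4 h and -2.14 at 24 h). Of all tested genes, 34.2% and 29.7% were higher with LPS at these times, and 23.9% and 21% with dexamethasone under LPS. The summed level of the 5 was 69.2 ± 2.37 CPM in control cells at 4 h and 333 ± 37.7 with dexamethasone, and 94.3 ± 6.6 and 1280 ± 134 at 24 h. F13a1 made up most of that, at 1210 ± 132 CPM in the dexamethasone group of 24 h, while Ly6c2 stood at 2.39 ± 0.585 there and at 648 ± 20.8 after 24 h of LPS plus dexamethasone. None of the 5 was at 0 in any group, and their part in the Ccr2 result was not tested.

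Ccr3 encodes the eotaxin receptor, best known from eosinophils. It was low in control cells, at 15.9, 15.6 and 12.2 CPM at 4 h and 23, 19.2 and 22.1 at 24 h, and dexamethasone took it down to 1.53, 2.3 and 2.62 at 4 h and 1.41, 0.892 and 1.09 at 24 h. The ranges did not overlap at either time, and the falls were 6.74-fold (log2 change -2.75 ± 0.22, adjusted p = 2.6e-11) and 18.8-fold (log2 change -4.23 ± 0.24, adjusted p = 8.9e-15). LPS for 4 h gave 27.1, 15.7 and 19.3 CPM, a range that met that of the control cells. The log2 change of 0.51 ± 0.18 was called (adjusted p = 0.012), but became -0.26 (adjusted p = 0.17) with scaling by library size alone, 0.26 (adjusted p = 0.19) without LPS replicate 1 and 0.39 (adjusted p = 0.072) without control replicate 3. LPS for 24 h gave 5.32, 7.39 and 4.91 CPM, a 3.66-fold fall (adjusted p = 1.5e-09). With both agents the level was 1.35, 2 and 0.831 CPM at 4 h, a 15-fold fall from LPS alone (adjusted p = 1.3e-13). At 24 h the 3 libraries with both agents held 3, 2 and 0 counts of Ccr3, or 0.0869 ± 0.0799 CPM, a fitted 63.3-fold fall from LPS alone (log2 change -5.98 ± 0.48, adjusted p = 1.6e-11) that rests on those 5 counts. Markers of eosinophils, basophils and mast cells were read beside it: 8 markers summed to 5.58 ± 1.54 CPM in control cells at 4 h, 4.03 ± 0.165 with dexamethasone, 15.7 ± 2.65 with LPS and 9.63 ± 3.4 with both. At 24 h their sum was 5.65 ± 1.29 in control cells, 1.43 ± 0.14 with dexamethasone, 0.868 ± 0.435 with LPS and 1.21 ± 0.265 with both. Epx, the eosinophil peroxidase, did not exceed a group mean of 0.386 CPM and was at 0 in both LPS groups of 24 h, and 4 of the 8 markers passed the count filter. The part of these cells in the Ccr3 result was not tested.

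Ccr1 encodes a receptor of Ccl3, Ccl5, Ccl6 and Ccl9 and rose with dexamethasone at 4 h without LPS but fell with it under LPS. At 4 h its level was 18.9, 19.3 and 20.6 CPM in control libraries and 36.7, 45.4 and 44 with dexamethasone. LPS gave 36.4, 20 and 28.5 CPM, and LPS plus dexamethasone gave 5.19, 5.51 and 2.71. Dexamethasone thus put its libraries above the control range without LPS and below the LPS range with it. The rise without LPS was 2.15-fold (log2 change 1.1 ± 0.21, adjusted p = 0.00033), the fall with LPS was 6.35-fold (log2 change -2.67 ± 0.28, adjusted p = 1.9e-07), and the difference of the effects was -3.77 ± 0.35 on the log2 scale (adjusted p = 7.6e-08). The LPS rise at 4 h, 0.54 ± 0.22 (adjusted p = 0.036), had overlapping ranges and rested on the settings. It was -0.23 (adjusted p = 0.35) with scaling by library size alone, 0.3 (adjusted p = 0.25) without LPS replicate 1, 0.53 (adjusted p = 0.072) without LPS replicate 3 and 0.51 to 0.57 with adjusted p of 0.057 to 0.092 without any 1 of the control libraries. By 24 h the groups lay close: 28.3, 15.3 and 24.2 CPM in control cells, 17, 16.6 and 19.5 with dexamethasone, 33, 32.9 and 26.9 with LPS, and 21.9, 25.4 and 19.8 with both. None of the comparisons between these groups was called for Ccr1, with adjusted p of 0.075 for LPS, 0.22 for dexamethasone and 0.095 for dexamethasone under LPS. The calls at 24 h depended on control libraries: without control replicate 1 LPS gave 0.65 (adjusted p = 0.021), and without control replicate 2 dexamethasone gave -0.57 (adjusted p = 0.026). Fitted on the compared groups alone, dexamethasone under LPS was also called, at -0.46 (adjusted p = 0.00061). The same held for both agents against dexamethasone alone, at 0.32 (adjusted p = 0.0043), where the main fit gave 0.34 (adjusted p = 0.22).

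**Figure D3:**
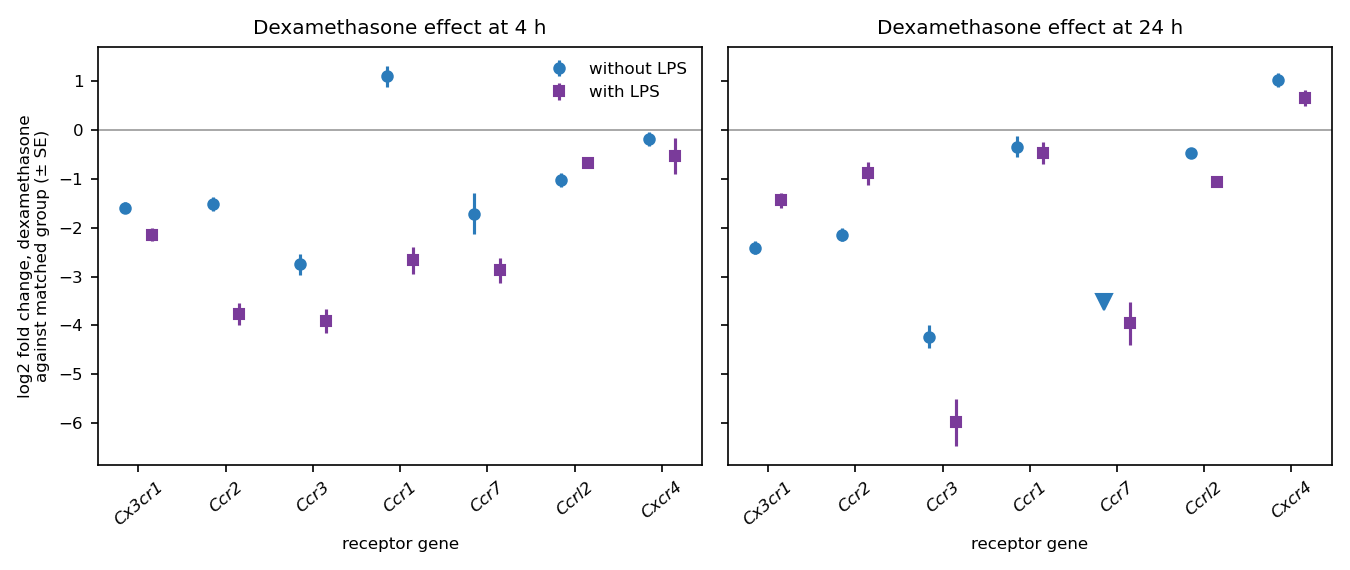
The log2 fold change of dexamethasone (± SE) is drawn for each receptor without LPS (circles, against control cells) and with LPS (squares, against LPS alone) at 4 h and at 24 h. The triangle for Ccr7 at 24 h is a bound; Ccr1 at 4 h stands at 1.1 without LPS and -2.67 with it, and Cxcr4 at 24 h is above 0 in both.

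Ccr7 encodes the receptor of Ccl19 and Ccl21, used by maturing dendritic cells and lymphocytes to reach lymph nodes, and was the rarest transcript of the 7 in control cells at both times per kb of exon. It held 1.44, 1.57 and 1.01 CPM in control libraries of 4 h and 21.9, 15.7 and 23.5 with LPS, a 15-fold rise with no overlap (log2 change 3.91 ± 0.27, adjusted p = 1.5e-14). Dexamethasone gave 0.694, 0.213 and 0.338 CPM alone, a 3.27-fold fall (adjusted p = 0.0011), and 2.91, 3.15 and 2.27 with LPS, a 7.33-fold fall from LPS alone (adjusted p = 3.1e-11). The pair of agents thus left Ccr7 above control cells and below LPS. At 24 h control cells held 0.317, 0.626 and 0.493 CPM, LPS 1.79, 3.91 and 4.32, and both agents 0.262, 0.0518 and 0.312. LPS raised it 6.77-fold at that time (adjusted p = 5.2e-08), and dexamethasone took it 15.5-fold down under LPS (adjusted p = 5.3e-09). The 3 dexamethasone libraries of 24 h held no count of Ccr7 against 34 counts in the 3 control libraries, which puts it at least 11.4-fold lower when 3 counts over the group are taken as the floor (adjusted p = 6.1e-05). Of 8 dendritic cell markers, LPS raised 5 at 4 h and lowered none, and raised 2 and lowered 3 at 24 h. Dexamethasone alone raised Flt3 and lowered 3 others at each time, with Flt3 going from 1.17 ± 0.505 to 15.1 ± 0.23 CPM at 4 h. Of all tested genes, LPS called 72.9% at 4 h and 60.4% at 24 h, and dexamethasone alone 41.4% and 48.4%. The sum of the 8 was 10.3 ± 1.38 CPM in control cells at 4 h, 18.2 ± 0.771 with dexamethasone, 537 ± 69.3 with LPS and 264 ± 24.6 with both. At 24 h the sum was 4.96 ± 0.855, 11 ± 0.233, 38.9 ± 6.05 and 76.2 ± 14.9 in the same order, so under LPS at 24 h it was higher with dexamethasone while Ccr7 was lower. Ccl22 and Fscn1 made up most of the sum at 4 h of LPS, at 328 ± 62 and 200 ± 8.03 CPM, while Zbtb46, a transcription factor that defines classical dendritic cells, was at 0.834 ± 0.365 and Cd209a was at 0 in both LPS groups of 24 h. Their part in the Ccr7 result was not tested.

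Ccrl2 gave the largest log2 change of the 7 in the comparisons between groups. Its level at 4 h was 3.59, 3.64 and 3.59 CPM in control libraries and 518, 551 and 487 with LPS, a 144-fold rise (log2 change 7.17 ± 0.08, adjusted p = 4.4e-39). Dexamethasone gave 1.62, 2.13 and 1.57 CPM alone and 295, 332 and 341 with LPS. Both dexamethasone groups lay below their matched groups without overlap, by 2.03-fold (adjusted p = 1.6e-07) and 1.61-fold (adjusted p = 2.7e-13). At 24 h the values were 13.2, 13.5 and 12.9 CPM in control cells, 9.33, 9.24 and 10.1 with dexamethasone, 39.5, 37.3 and 38.4 with LPS, and 17.8, 17.8 and 19.4 with both. The LPS rise had shrunk to 2.9-fold (adjusted p = 1.7e-20), and dexamethasone took 1.38-fold off the control level and 2.1-fold off the LPS level (adjusted p = 8.9e-06 and 1.4e-15). Ccrl2 thus stayed 181-fold higher in cells given both agents than in cells given dexamethasone alone at 4 h (adjusted p = 1.8e-38) and 1.92-fold higher at 24 h.

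Cxcr4 encodes the receptor of Cxcl12, the chemokine that keeps blood-forming cells and leukocytes in the bone marrow. At 4 h it stood at 178, 155 and 161 CPM in control libraries and 157, 141 and 134 with dexamethasone, against 3.35, 2.34 and 5 with LPS and 1.87, 3.94 and 1.66 with both. LPS lowered it 46.7-fold (log2 change -5.54 ± 0.21, adjusted p = 2.5e-14), and the dexamethasone groups overlapped their matched groups, with log2 changes of -0.19 ± 0.14 without LPS (adjusted p = 0.29) and -0.53 ± 0.37 with it (adjusted p = 0.26). At 24 h the libraries held 223, 266 and 208 CPM in control cells, 457, 506 and 447 with dexamethasone, 33, 28.3 and 27.2 with LPS, and 54, 47.5 and 38 with both. Here dexamethasone lay above its matched group without overlap on either background. The rise was 2.02-fold without LPS (log2 change 1.02 ± 0.14, adjusted p = 5.2e-06) and 1.57-fold with it (log2 change 0.65 ± 0.16, adjusted p = 0.0029), and the LPS fall was 7.87-fold (adjusted p = 5.3e-12). Of the 7 receptors, Cxcr4 alone had a called rise with dexamethasone at 24 h.

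**Figure D4:**
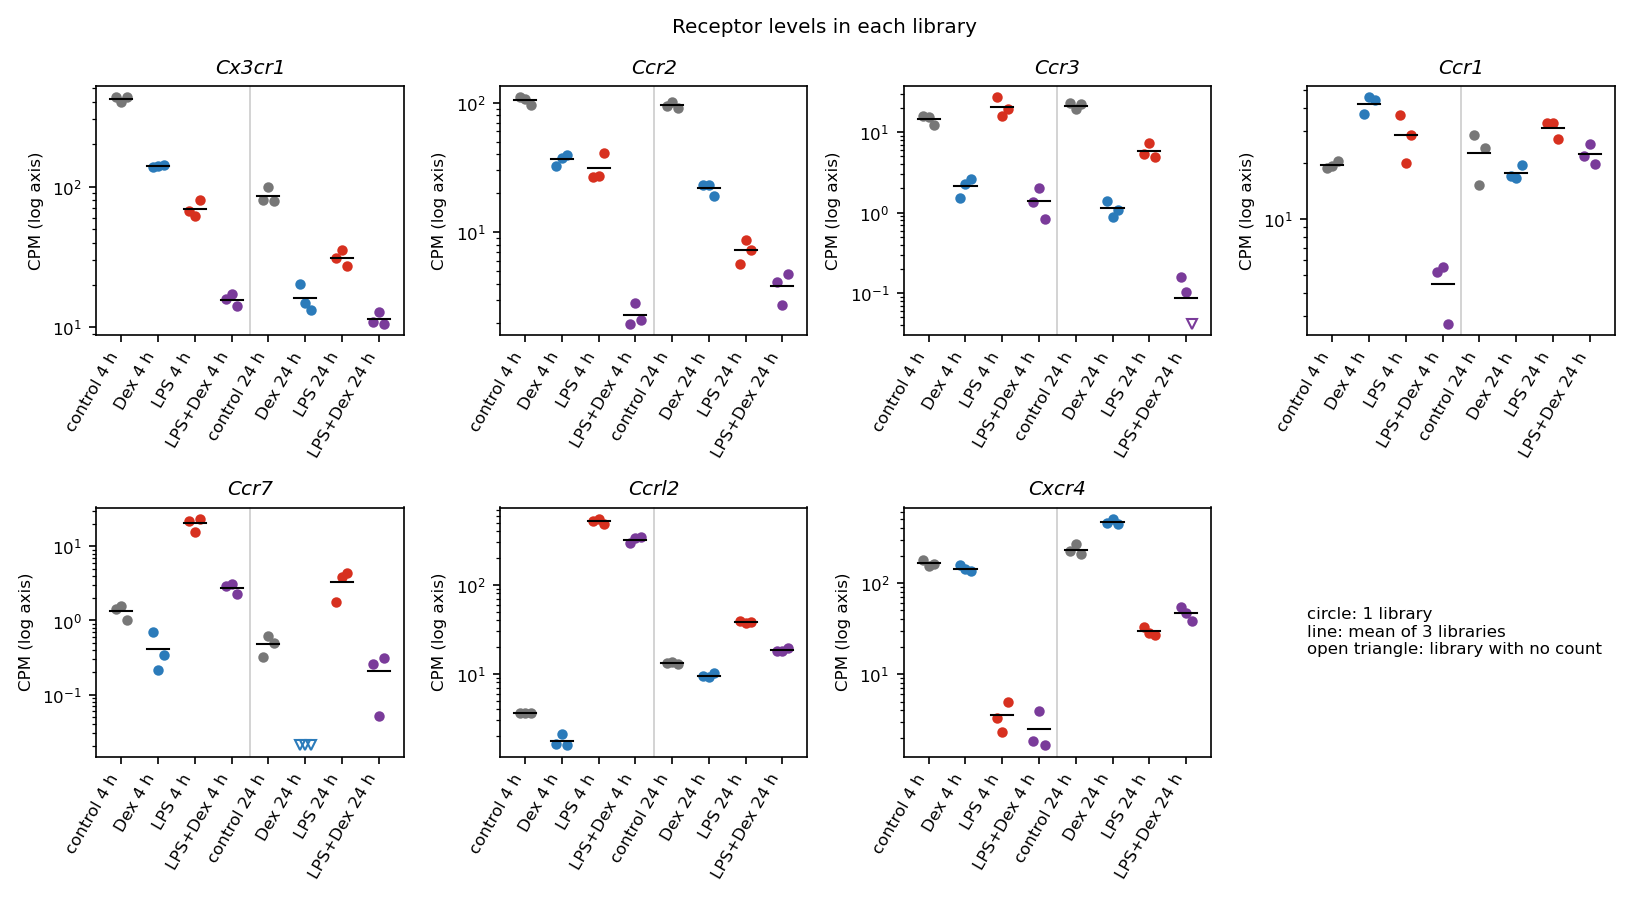
Each circle is the CPM of a receptor (panel, log axis) in 1 library of the group named below, the line is the mean of 3 libraries and open triangles are libraries with no count. LPS lowers Cx3cr1, Ccr2 and Cxcr4 and raises Ccrl2 and Ccr7 at 4 h, and the 3 triangles in the Ccr7 panel are the dexamethasone libraries of 24 h.

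The time of treatment changed the size of most responses. The LPS effect differed between 24 h and 4 h for 6 of 7 receptors, beside 61.3% of all genes (30.8% higher, 30.5% lower). At 24 h it was a deeper fall for Ccr2, a fall in place of a rise for Ccr3 and a smaller rise for Ccr7 and Ccrl2. For Cx3cr1 and Cxcr4 it was a smaller fall. The control level moved between the times as well: Ccrl2 rose 3.66-fold there (adjusted p = 1.1e-18) and Cx3cr1 fell 4.87-fold. For Ccrl2 the difference was -5.63 ± 0.11 on the log2 scale (adjusted p = 4.4e-31), and for Cxcr4 it was 2.57 ± 0.28 (adjusted p = 2.6e-07). The Ccr7 difference of -1.15 ± 0.5 was close to the threshold (adjusted p = 0.048) and lost the call without any 1 of 7 libraries: control replicates 1 and 3 and LPS replicates 1 and 3 of 4 h, and control replicates 2 and 3 and LPS replicate 1 of 24 h. The value was then -0.84 to -1.21, and scaling by library size alone gave -0.58 (adjusted p = 0.32). The dexamethasone effect without LPS differed between the times for all 7 receptors, 2 higher and 5 lower at 24 h, beside 30.7% of all genes (13.8% higher, 16.8% lower). Ccr1 changed by -1.45 ± 0.31 (adjusted p = 0.0013) and Cxcr4 by 1.21 ± 0.19 (adjusted p = 8.9e-05). The Ccr2 value of -0.61 ± 0.19 (adjusted p = 0.019) lost the call without control replicate 3 or dexamethasone replicate 3 of 4 h or dexamethasone replicate 3 of 24 h (adjusted p of 0.05 to 0.065). Without dexamethasone replicate 3 of 4 h the Ccrl2 value went from 0.55 to 0.47 (adjusted p = 0.051). The Ccr7 call, which rests on a group with no count, was lost without dexamethasone replicate 1 of 4 h or any 1 dexamethasone library of 24 h (adjusted p of 0.056 to 0.061). Under LPS the dexamethasone effect differed for 6 of 7, 4 higher and 2 lower at 24 h, beside 38.8% of all genes (19% higher, 19.8% lower), with Ccr2 at 2.88 ± 0.35 (adjusted p = 9e-07) and Ccr1 at 2.2 ± 0.36 (adjusted p = 7.5e-05). Those of Ccr3 (-2.08 ± 0.79, adjusted p = 0.038) and Cxcr4 (1.18 ± 0.41, adjusted p = 0.029) lost the call when single libraries were left out. For Ccr3 these were LPS replicate 3 and LPS plus dexamethasone replicates 1 and 2 of 4 h, and LPS replicate 2 and LPS plus dexamethasone replicates 2 and 3 of 24 h (adjusted p of 0.055 to 0.16, the last at -1.53 without LPS plus dexamethasone replicate 3). For Cxcr4 they were LPS replicates 1 and 3 and LPS plus dexamethasone replicates 1 and 3 of 4 h (adjusted p of 0.052 to 0.14). The Cx3cr1 value of 0.7 ± 0.21 (adjusted p = 0.014) became 0.6 (adjusted p = 0.054) without LPS plus dexamethasone replicate 2 of 24 h. Scaling by library size alone also ended the calls of Cx3cr1 (0.51, adjusted p = 0.057) and Cxcr4 (0.99, adjusted p = 0.056). Among all genes, the share of higher calls went from 50.3% to 74.9% for the LPS effect and from 49% to 28.7% for dexamethasone under LPS when scaled by library size alone.

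Whether LPS altered the dexamethasone effect was tested at each time. At 4 h the effect was lower with LPS for 4 of 7 receptors and higher for none, beside 38.7% of all genes (20.8% higher, 17.9% lower). The difference was -3.77 ± 0.35 for Ccr1, -2.25 ± 0.27 for Ccr2 (adjusted p = 1e-06), -1.15 ± 0.37 for Ccr3 (adjusted p = 0.014) and -0.55 ± 0.18 for Cx3cr1 (adjusted p = 0.023). Without LPS plus dexamethasone replicate 3 the calls were 2, since Ccr3 (-0.89, adjusted p = 0.07) and Cx3cr1 (-0.47, adjusted p = 0.08) dropped out. Ccr3 also lost the call without dexamethasone replicate 3 (-0.98, adjusted p = 0.063), and Cx3cr1 without LPS replicate 3 (-0.43, adjusted p = 0.065) or LPS plus dexamethasone replicate 1 (-0.55, adjusted p = 0.05). Ccrl2, not called at 0.34 ± 0.15 (adjusted p = 0.078), became a called higher difference without dexamethasone replicate 2 (0.5, adjusted p = 0.025), LPS replicate 2 (0.38, adjusted p = 0.044) or LPS plus dexamethasone replicate 1 (0.4, adjusted p = 0.032). Ccr7, not called at -1.17 ± 0.54 (adjusted p = 0.086), became a called lower one without dexamethasone replicate 2 (-1.48, adjusted p = 0.042). Scaling by library size alone made the Ccrl2 difference 0.57 (adjusted p = 0.0014) and that of Cx3cr1 -0.31 (adjusted p = 0.17). Of all genes called there, 53.9% were higher, or 77.1% with scaling by library size alone. At 24 h the test called 3 of 7, beside 38.2% of all genes (20.5% higher, 17.7% lower): the falls of Ccr2 (1.25 ± 0.28, adjusted p = 0.0012) and Cx3cr1 (0.97 ± 0.21, adjusted p = 0.00086) were smaller with LPS, and that of Ccrl2 (-0.6 ± 0.11, adjusted p = 1.9e-05) was larger. Ccr3, not called at -1.75 ± 0.8 (adjusted p = 0.087), became a called lower difference without the count filter (-1.73, adjusted p = 0.02). The same held with DESeq2's Wald test (-1.83, adjusted p = 0.03) and with the compared groups alone (-1.78, adjusted p = 0.023). Its value rests on 5 counts in the cells given both agents.

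The ligands of these receptors, a list of 14 chemokines and chemerin, were also read in the macrophages, and 9 passed the count filter. Ccl11, Ccl19, Ccl21a, Cxcl12 and Rarres2 did not. LPS at 4 h raised all 9, with Ccl5 going from 3.94 ± 1.1 to 3930 ± 145 CPM, Ccl3 from 23.6 ± 2.35 to 6510 ± 381, Ccl2 from 15.8 ± 1.11 to 345 ± 30.4 and Cx3cl1 from 4.69 ± 0.305 to 40.4 ± 1.44. The direction of Ccl6 depended on the scaling, since its rise of 0.29 on the log2 scale became -0.48 (adjusted p = 0.00012) with scaling by library size alone. At 24 h LPS raised 5 and lowered 3, or 3 and 3 with scaling by library size alone, and Cx3cl1 then stood at 0.0819 ± 0.0286 CPM against 2.32 ± 0.351 in control cells. So Cx3cr1 and its own ligand moved in opposite directions under LPS at 4 h, and both fell at 24 h. Ccr2 and its ligand Ccl2 likewise moved in opposite directions under LPS at 4 h. Since all 9 tested ligands rose there, a receptor that fell was opposite to its tested ligands whatever the pairing. Ccr1, a receptor of Ccl3 and Ccl5, had a called rise at that time (0.54 on the log2 scale), as did Ccr3 (0.51). Both of these rises depended on the scaling. Under LPS dexamethasone lowered 8 of the 9 ligands at 4 h and 6 at 24 h and raised 0 and 2, with Ccl7 falling from 280 ± 2.55 to 38.3 ± 4.1 CPM at 4 h (adjusted p = 1.5e-12). Without LPS it lowered 5 and raised 1 at 4 h, and lowered 6 and raised 1 at 24 h. Of all tested genes, LPS called 72.9% at 4 h (34.2% higher) and 60.4% at 24 h. Dexamethasone called 41.4% and 48.4% without LPS and 49.3% and 43.7% with it, at 4 h and 24 h. The median log2 fold change of the 9 was 5.89 under LPS at 4 h, against -0.07 over all tested genes.

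Among 18 other receptors of chemokines and chemerin, 8 passed the filter. LPS at 4 h raised 4 of them and lowered 1, or 4 and 3 with scaling by library size alone, and Xcr1, the lymphotactin receptor, went from 0.133 ± 0.205 to 9.87 ± 0.492 CPM. Dexamethasone raised Cmklr1, the signalling receptor of chemerin, from 6.12 ± 1.5 to 21.7 ± 3.09 CPM at 4 h (log2 change 1.83 ± 0.14, adjusted p = 6.2e-11) and from 12.5 ± 1.76 to 47.1 ± 4.69 at 24 h. In the same comparisons Ccrl2, which binds the same ligand, fell. Over the 8, dexamethasone raised 1 and lowered 4 at 4 h, raised 1 and lowered 3 at 24 h, and under LPS raised 1 and lowered 5 at 4 h and raised 1 and lowered 2 at 24 h. Of all tested genes, dexamethasone called 41.4% at 4 h and 48.4% at 24 h, and 49.3% and 43.7% under LPS. LPS at 4 h called 72.9%. With so few genes and shares of that size, the counts are no mark of these receptors.

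The 27 genes of receptor signalling, G protein subunits, receptor kinases, arrestins, RGS proteins that end G protein signals and the kinases and exchange factors behind them, were all tested. LPS raised 12 and lowered 12 at 4 h, counts that became 7 and 18 with scaling by library size alone. The RGS genes moved apart: Rgs16 rose from 2.01 ± 0.356 to 31.9 ± 3.41 CPM and Rgs2 fell from 284 ± 19.6 to 19.3 ± 3.38. Pik3r5, a regulatory subunit of the phosphoinositide 3-kinase that G protein subunits activate, rose from 303 ± 16.8 to 2280 ± 71.6 CPM. Dexamethasone without LPS raised 4 and lowered 12 at 4 h and raised 7 and lowered 15 at 24 h. Its falls included Rgs1, from 137 ± 18 to 37.7 ± 4.42 CPM at 4 h and from 114 ± 23.3 to 20 ± 3.49 at 24 h, and its rises included Gng2, from 85.8 ± 6.74 to 184 ± 8.08 at 4 h. Under LPS dexamethasone raised 11 and lowered 13 at 4 h, or 13 and 7 with scaling by library size alone, and raised 13 and lowered 6 at 24 h. Of all tested genes, LPS called 72.9% at 4 h. Dexamethasone called 41.4% and 48.4% without LPS and 49.3% and 43.7% with it, at 4 h and 24 h. The receptor kinase gene Grk3 rose at 24 h under LPS from 13.2 ± 0.954 to 37.8 ± 4.56 CPM (adjusted p = 1.1e-11).

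For each receptor, the 3 genes with the most similar course over the 8 groups were found by the root mean square difference of group means on the log2 CPM scale, each centred on its own mean. For Ccrl2 they were Exoc3l4 (0.46), Tnfaip2 (0.56) and Ccl3 (0.64), against a spread of 2.87 (SD over the 8 groups) for Ccrl2 itself. Cxcr4 had Slc26a11 (0.56), Arrdc3 (0.68) and Rasgrp3 (0.68) beside a spread of 2.81. Cx3cr1 had Itga8 (0.45), Slc36a2 (0.47) and Dctd (0.51) beside a spread of 1.81, and these 3 were all low, at 3.77, 2.5 and 8.46 CPM in control cells at 4 h. The nearest course to Ccr2 was that of Bcar3 (0.51), to Ccr3 that of Flrt2 (0.74) and to Ccr7 that of Pdpn (0.6), with spreads of 2.04, 2.44 and 2.42. Ccr1 had the flattest course, with a spread of 0.97, and its nearest gene, Hist1h4k (0.44), was itself at 0.645 CPM or lower in every group.

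Ccr1, Ccr2, Ccr3, Ccrl2 and Cx3cr1 lie on chromosome 9, with Ccr1, Ccr3 and Ccr2 between 123762161 and 123913594 in the deposited table, whose coordinates are those of GENCODE M29 (GRCm39). These 3 neighbours did not move together: under dexamethasone at 4 h Ccr1 rose while Ccr2 and Ccr3 fell. Cxcr4 lies on chromosome 1 (128515936 to 128520030) and Ccr7 on chromosome 11 (99035022 to 99045903). The 250 bases before the start of transcription are shown for 4 receptors: Ccrl2 and Cxcr4, with the largest rise and the largest fall under LPS at 4 h, Ccr3, with the largest fall under dexamethasone alone at 4 h, and Cx3cr1, which like Ccr2 was lowered by each agent at both times. They are RefSeq sequences of build GRCm38.p6, in the direction of the gene, and 6 of the 7 receptors matched an entry there (not Ccr7). Capitals mark matches on either strand to an NF-kB-type motif, written GGG, 5 bases of any kind and CC, and to AGAACA, a half-site of the glucocorticoid receptor.
Ccrl2: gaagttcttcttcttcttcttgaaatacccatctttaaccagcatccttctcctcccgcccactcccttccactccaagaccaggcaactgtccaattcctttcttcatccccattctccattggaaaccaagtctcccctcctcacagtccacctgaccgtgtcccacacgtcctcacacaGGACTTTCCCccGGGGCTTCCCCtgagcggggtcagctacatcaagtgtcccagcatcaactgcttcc
Cxcr4: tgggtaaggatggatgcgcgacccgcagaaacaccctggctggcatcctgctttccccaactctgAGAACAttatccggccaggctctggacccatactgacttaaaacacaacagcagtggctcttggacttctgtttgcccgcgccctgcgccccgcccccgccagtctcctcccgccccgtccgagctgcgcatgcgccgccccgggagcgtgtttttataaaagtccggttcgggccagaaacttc
Ccr3: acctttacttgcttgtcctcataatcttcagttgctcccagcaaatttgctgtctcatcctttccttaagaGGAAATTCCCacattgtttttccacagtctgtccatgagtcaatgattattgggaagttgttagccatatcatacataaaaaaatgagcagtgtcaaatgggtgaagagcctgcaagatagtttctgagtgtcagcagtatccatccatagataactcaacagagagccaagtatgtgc
Cx3cr1: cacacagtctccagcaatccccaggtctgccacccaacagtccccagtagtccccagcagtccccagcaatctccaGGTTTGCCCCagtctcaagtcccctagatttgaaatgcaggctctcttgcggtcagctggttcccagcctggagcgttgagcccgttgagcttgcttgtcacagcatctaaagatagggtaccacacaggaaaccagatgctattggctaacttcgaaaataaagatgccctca
The windows are chr9:111057519-111057768 (minus strand) for Ccrl2, chr1:128592300-128592549 (minus strand) for Cxcr4, chr9:124021721-124021970 (plus strand) for Ccr3 and chr9:120068297-120068546 (minus strand) for Cx3cr1. Ccrl2 has 3 start sites in the table, and the one shown lies farthest upstream. Its window held 5 matches to the NF-kB-type motif. Of these, 1 lay 68 to 59 bases before the start and the other 4, which overlap each other, between 56 and 46 bases before it. Each position among those 4 matched on both strands and so was counted once per strand. The windows of the other starts held none. They overlap each other, and the 1 match to AGAACA that each held is the same site. The windows of Ccr3 and Cx3cr1, as well as that of Ccr1, held 1 match to the NF-kB-type motif each, and that of Cxcr4 held none and 1 match to AGAACA, 185 to 180 bases before the start. These letters are common: of 32851 windows of the same length, 45.8% held the NF-kB-type motif and 16.1% held AGAACA. The full palindrome of the glucocorticoid receptor, AGAACA, 3 bases of any kind and TGTTCT, which contains the half-site, was in 0.00913% of windows and in none of the receptors' windows. TGANTCA, the AP-1 motif, was in 6.75% of all windows and in that of Ccr3. An interferon-response type (TTTC, 2 bases of any kind and TTTC; 2.98% of all windows) and a PU.1 type (GAGG directly followed by AAGT; 2.44%) were in none of the receptors' windows, and the Ccr2 window held no match to any of the 6 motifs. A match is a description of the letters only.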

How the data were processed

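Total RNA of bone marrow-derived macrophages was sequenced in 24 libraries, 8 groups of 3. The deposited table holds whole-number counts per gene, not scaled, per the file headers, made with featureCounts 2.0.0 on read pairs without strand and with GENCODE M29. STAR is named without a version in the submitters' processing notes, which list GRCm38 and mm10, while GENCODE M29 belongs to GRCm39, so the build of the alignment is uncertain. Its exon length column (bases, per the file headers) gave CPM per kb.

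Gene symbols were matched by identifier for 52081 of 55357 genes. All libraries entered 1 fit in edgeR 4.0.16 (R 4.3.3) with filterByExpr by group, TMM factors (0.679 to 1.18) and robust quasi-likelihood dispersions, which left 16 residual degrees of freedom. The 14 contrasts (9 between groups and 5 interactions) were tested two-sided. The SE is the size of the log2 change divided by the root of F, and is rough at few counts. Without strand, reads of antisense partners cannot be told apart. Replicates differed by more than sampling noise (chi-square per gene 3.05 to 8.32 over 24 pairs).

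The 7 receptors and the gene lists were chosen with earlier results of these data known. Named genes are the receptors, the 3 genes of nearest course for each, and up to 2 rises and 2 falls per list and comparison at 1 CPM or more; Ccl2, Ccl3 and Cx3cl1 at 4 h of LPS and Ccl6 are named outside that rule. Alternatives were other scalings, no count filter, DESeq2 1.42.0, the compared groups alone, a replicate block and leaving out each library. The fit was tested on simulated data before use.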

Additional observations from a re-analysis of the deposited data

Results flagged for a closer look

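Every result here is a difference between effects that the quasi-likelihood test called, on the log2 scale. For the LPS effect at 24 h minus that at 4 h the values were -1.99 for Ccr2, -2.38 for Ccr3, -1.15 for Ccr7, -5.63 for Ccrl2, 1.13 for Cx3cr1 and 2.57 for Cxcr4. Ccr3 had a called rise at 4 h and a called fall at 24 h, of which the rise depended on the scaling.

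For the dexamethasone effect without LPS at 24 h minus that at 4 h they were -1.45 for Ccr1, -0.61 for Ccr2, -1.48 for Ccr3, -4.67 for Ccr7, 0.55 for Ccrl2, -0.82 for Cx3cr1 and 1.21 for Cxcr4. The fitted Ccr7 value rests on a group with no count and is neither a size nor a bound.

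For the dexamethasone effect under LPS at 24 h minus that at 4 h they were 2.2 for Ccr1, 2.88 for Ccr2, -2.08 for Ccr3, -0.38 for Ccrl2, 0.7 for Cx3cr1 and 1.18 for Cxcr4. Ccr2 fell 13.6-fold at 4 h and 1.85-fold at 24 h in that comparison, from an LPS level of 31.4 ± 7.97 CPM at 4 h and 7.25 ± 1.55 at 24 h.

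For dexamethasone with LPS minus without it, the values at 4 h were -3.77 for Ccr1, -2.25 for Ccr2, -1.15 for Ccr3 and -0.55 for Cx3cr1, and those at 24 h were 1.25 for Ccr2, -0.6 for Ccrl2 and 0.97 for Cx3cr1. Ccr2 and Cx3cr1 thus had a difference of one sign at 4 h and of the other at 24 h; the change of that difference with time was not tested.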

How the results depend on the processing

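Over the alternatives run, the counts of called receptors stayed within 1.5 times the main count except for the dexamethasone effect with LPS minus without it at 4 h, which ranged from 2 to 6 when single libraries were left out against 4 in the main analysis. Scaling by library size alone moved the median of all genes by -0.77 for LPS at 4 h, 0.22 for dexamethasone under LPS at 4 h and 0.57 for the LPS effect at 24 h minus 4 h, and it reversed Ccr1 (-0.23) and Ccr3 (-0.26) under LPS at 4 h and the uncalled Ccr1 difference of the LPS effect between the times (0.49). The latter ran from -0.3 to 0.16 over left-out libraries, and the uncalled Ccr1 difference of the dexamethasone effect with and without LPS at 24 h from -0.32 to 0.1. DESeq2's size factors changed none of 98 receptor results in call or direction, and its Wald test changed 4. With the replicate block 96 of 98 kept call and direction, while Ccr1 under LPS at 4 h (0.53, adjusted p = 0.067) and Ccr3 in control cells over time (0.48, adjusted p = 0.11) lost the call. The labels do not say what a replicate number stands for across groups. In their deviations from the group means, same-numbered libraries correlated at -0.0367 to 0.0253 at 4 h and -0.0449 to 0.0509 at 24 h. At these times 1 of 12 and 4 of 12 libraries correlated best with their own number. With 3 libraries in a group, this cannot settle whether equal numbers share a mouse or a day. Depth limits Ccr7 and Ccr3 at 24 h in some groups. Ccr7 held 0 counts over the dexamethasone group and 12 over the group with both agents, and Ccr3 held 5 over the latter.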
